A study of Homo sapiens with 16 samples.

Results

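CTCF and eGFP-YAP were each profiled in HEK293 cells with and without hyperosmotic sorbitol, and the question here was where the 2 proteins responded differently. The comparison uses the 8 CTCF and YAP1 libraries of the 16 in the series. At each genomic interval it tests the interaction of target and treatment, which is the CTCF response minus the YAP1 response, each response being the log2 fold change of sorbitol over vehicle. Of the 74404 intervals in the deposited table, 73975 lay on chromosomes 1 to 22 and X and outside the YAP1 gene, and 40996 of these held enough counts to be tested.

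HEK293 is a human embryonic kidney cell line, and every library came from cells of the eGFP-YAP genotype, so there is no group without the tagged protein. The 4 groups were CTCF with vehicle, CTCF with 200 mM sorbitol for 1 h, YAP1 with vehicle, and YAP1 with 200 mM sorbitol for 1 h, with 2 libraries each. YAP1 was read with an antibody against GFP, which binds the tag. In CUT&Tag an antibody on the chromatin guides the Tn5 transposase, which cuts and tags the DNA nearby. The labels do not say whether the 2 libraries of a group came from separate cultures, so the p-values measure only the spread between these libraries, which may be technical.

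CTCF is a zinc-finger protein that binds a long DNA motif, acts as an insulator and halts the cohesin complex where chromatin loops are anchored. YAP1 is a transcriptional co-activator of the Hippo pathway that does not bind DNA itself and reaches chromatin mostly through TEAD factors, often beside AP-1. Hyperosmotic stress draws water from cells, activates stress kinases and induces immediate early genes.

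The retained counts per library were 2475732 to 3616235 for CTCF with vehicle, 1523792 to 1565071 for CTCF with sorbitol, 1652645 to 1961929 for YAP1 with vehicle and 659976 to 803927 for YAP1 with sorbitol. Mitochondrial intervals held 15.7% to 19.9% of CTCF counts with vehicle and 32.8% to 33.9% with sorbitol. For YAP1 these shares were 36.5% to 38.1% and 55.4% to 57.8%. Depth and mitochondrial share thus moved with the treatment in both targets, and their part in the results was not tested. Among the 1000 intervals with the highest count per kb, the core of the CTCF motif occurred in 36.3% to 36.6% for CTCF with vehicle and in 5.5% to 5.9% for YAP1 with vehicle, against 12.9% of all retained intervals. The TEAD motif GGAATGT occurred in 10.1% to 10.2% for YAP1 with vehicle and in 8.8% to 8.9% for CTCF with vehicle, against 6.00% of all retained intervals, which are narrower. With sorbitol the core occurred in 29.3% to 30.7% for CTCF and in 4.2% to 4.9% for YAP1. The TEAD motif then occurred in 6.7% to 7.2% for CTCF and in 7.1% to 7.8% for YAP1. The TEAD share is thus not particular to YAP1.

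Sequences of 4 intervals are shown because they carry the patterns described below. The first pair holds exact matches to the CTCF core, written as CCA, any pair of bases, AG, any pair of bases and GGC, and searched on both strands. One lies in an intron of the long noncoding RNA gene FIRRE, where CTCF fell, and the other in an intron of CASZ1, a zinc-finger transcription factor gene, where CTCF rose. Neither interval of the first pair holds the longer 14-base CTCF consensus, even with 1 mismatch allowed. The second pair, from another FIRRE intron interval and from an intergenic interval of chromosome 11 where CTCF rose, has no core match. All are plus-strand hg38 sequence, with capitals for 1 core match in each stretch of the first pair and for CG dinucleotides in the second. In the CASZ1 stretch, further copies of the core stand in lower case on either side of the capitals.
FIRRE intron with core, chrX:131746569-131746640: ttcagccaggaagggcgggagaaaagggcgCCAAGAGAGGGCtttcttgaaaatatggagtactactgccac
CASZ1 intron with core, chr1:10744343-10744414: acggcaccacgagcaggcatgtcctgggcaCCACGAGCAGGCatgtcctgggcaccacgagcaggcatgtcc
FIRRE intron without core, chrX:131763343-131763462: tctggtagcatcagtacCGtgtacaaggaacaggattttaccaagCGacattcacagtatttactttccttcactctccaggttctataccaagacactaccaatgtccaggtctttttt
Chromosome 11 intergenic, chr11:735545-735664: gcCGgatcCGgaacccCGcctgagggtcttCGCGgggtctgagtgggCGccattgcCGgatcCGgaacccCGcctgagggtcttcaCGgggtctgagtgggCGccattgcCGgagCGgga
The FIRRE stretch without a core holds 2 CG dinucleotides and the chromosome 11 stretch of the same length holds 13. The CASZ1 interval is a tandem repeat with a shift of 24 bases, and its core recurs 15 times.

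Across all tested intervals, 5061 of 40996 passed the threshold of an adjusted p of 0.05 in edgeR's quasi-likelihood test with Benjamini-Hochberg adjustment, which is 12.3%. At 3677 intervals (8.97%) the CTCF response lay above the YAP1 response, and at 1384 (3.38%) it lay below. The median difference was 0.39 on the log2 scale. DESeq2's test called 9.8% of the same intervals.

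The overall direction cannot be read from these counts, because it turned with the scaling of the libraries. With DESeq2 size factors in the same test, 1021 intervals lay above and 2552 below, and the median difference was -0.19. With the differences centred on their median, 1576 lay above and 1946 below. Scaling to the weakest 25% of tested intervals gave 8064 above and 908 below, with a median of 0.88. Counts were also simulated with the same response in both targets. There the TMM scaling used here moved the typical difference toward CTCF above YAP1. Size factors did not, and centring removes such a shift by construction, so its result there carries no information. The simulated responses were built from these same counts and need not match the real ones. How much of the median the scaling accounts for in the data was not tested.

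The results below therefore lead with intervals called in the same direction under all 7 scalings tried and with contrasts between classes of intervals inside each library. In all 7 scalings 1021 intervals (2.49%) had the CTCF response above and 889 (2.17%) below. YAP1 averaged under 10 counts at 698 of these 889, against 77 of the 1021, so most of the intervals below rest on few YAP1 counts. The 1021 above are the intervals called with DESeq2 size factors alone, so the 7 scalings are not separate lines of support. All 7 used the same count filter and no GC correction. No interval called with TMM was called in the opposite direction in any other setting tried, though many calls were lost.

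**Figure D1:**
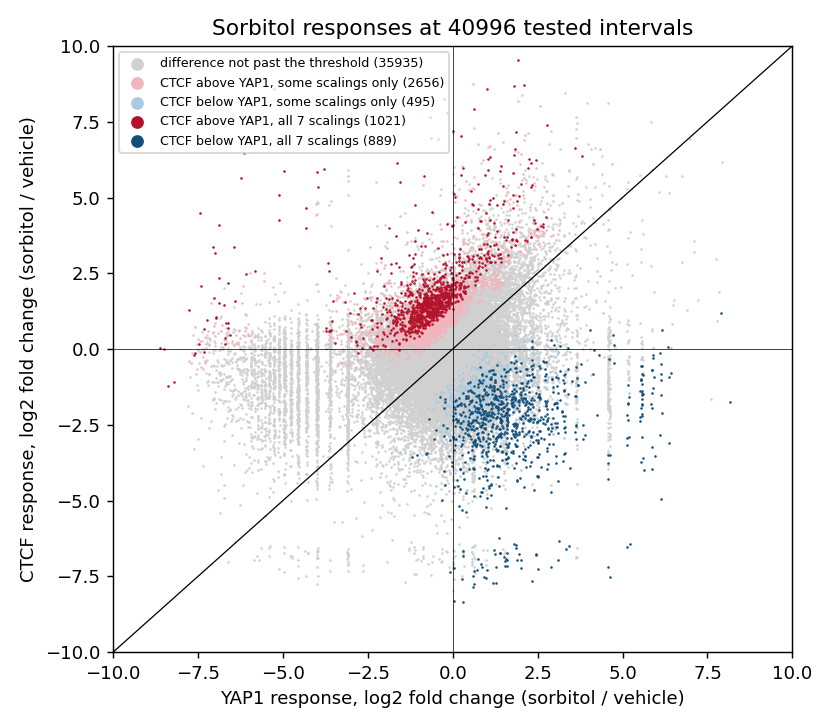
Each point is 1 of the 40996 tested intervals, with the YAP1 response on the x axis and the CTCF response on the y axis, both log2 fold changes of sorbitol over vehicle; the diagonal marks equal responses. The 1021 dark red and 889 dark blue intervals were called under all 7 scalings, and pale colours mark calls made under some scalings only.

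In both directions, the target that passed its own test alone was more often CTCF than YAP1. CTCF on its own rose at 6032 intervals (14.7%) and fell at 6097 (14.9%), while YAP1 rose at 909 (2.22%) and fell at 1121 (2.73%). Of the 3677 intervals above, CTCF rose and YAP1 did not pass its own test at 2299, and YAP1 fell while CTCF did not pass at 457. Opposite movements, with CTCF higher and YAP1 lower, were found at 179, of which 161 were called under all 7 scalings. Of the 1384 below, CTCF fell and YAP1 did not pass at 1090, and YAP1 rose while CTCF did not pass at 82. CTCF fell while YAP1 rose at 26, all of them called under all 7 scalings. These own-target directions carry the same dependence on scaling.

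Promoters had higher differences than distal intervals. The order of these classes is read here, as their signs carry the dependence on scaling given above. An interval within 1 kb of an annotated start site is called a promoter here. Of 19179 promoter intervals, 3023 lay above (15.8%) and 317 below (1.65%). Of 21817 distal intervals, 654 lay above (3%) and 1067 below (4.89%). Under all 7 scalings, 827 promoter intervals lay above (4.31%) and 179 below (0.933%), against 194 and 710 distal intervals.

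Inside each library, the median log2 CPM (counts scaled to library size) of promoters minus that of distal intervals is largely free of the scaling. In the CTCF libraries it was 0.06 and 0.05 with vehicle and 0.81 and 0.95 with sorbitol. In the YAP1 libraries it was 2.06 and 2.14 with vehicle and 1.75 and 1.86 with sorbitol. Promoters thus gained on distal intervals in both CTCF sorbitol libraries and lost in both YAP1 sorbitol libraries, and the vehicle and sorbitol values did not overlap in either target. The change was 0.82 ± 0.11 (SD, n = 2) for CTCF and -0.29 ± 0.02 (SD, n = 2) for YAP1. Their difference was 1.12, with an exact two-sided permutation p of 0.333, which is the smallest that 2 against 2 values allow. YAP1 averaged under 10 counts at 20078 of the 40996 tested intervals, so its distal medians rest on few whole counts. The SD of the YAP1 change does not show that limit.

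GC content moved with this contrast. The median fitted difference was 0.79 at promoters and -0.19 at distal intervals, a gap of 0.99, and with GC-corrected offsets the gap was 0.26. Requiring a mean of at least 10 counts in each target gave 0.55, and leaving out the second YAP1 sorbitol library gave 0.60. Under the 7 scalings the gap stayed between 0.97 and 1.03. From the lowest to the highest quintile of GC content, the median difference was -0.48, -0.24, 0.33, 0.67 and 0.96. Within these quintiles promoters exceeded distal intervals by 0.29, 0.76, 0.73, 0.66 and 0.27. How much of the promoter contrast GC content accounts for was not tested.

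CTCF's median response at promoters rose from -0.68 in the lowest quintile to 0.59 in the highest. For YAP1 the medians at promoters were -0.10, -0.36, -0.43, -0.38 and -0.33 from the lowest to the highest quintile. At distal intervals the medians went from -0.90 in the lowest to 0.84 in the highest for CTCF, and from 0.00 to 0.21 for YAP1. In the highest quintile 22% of promoters lay above and 0.693% below.

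**Figure D2:**
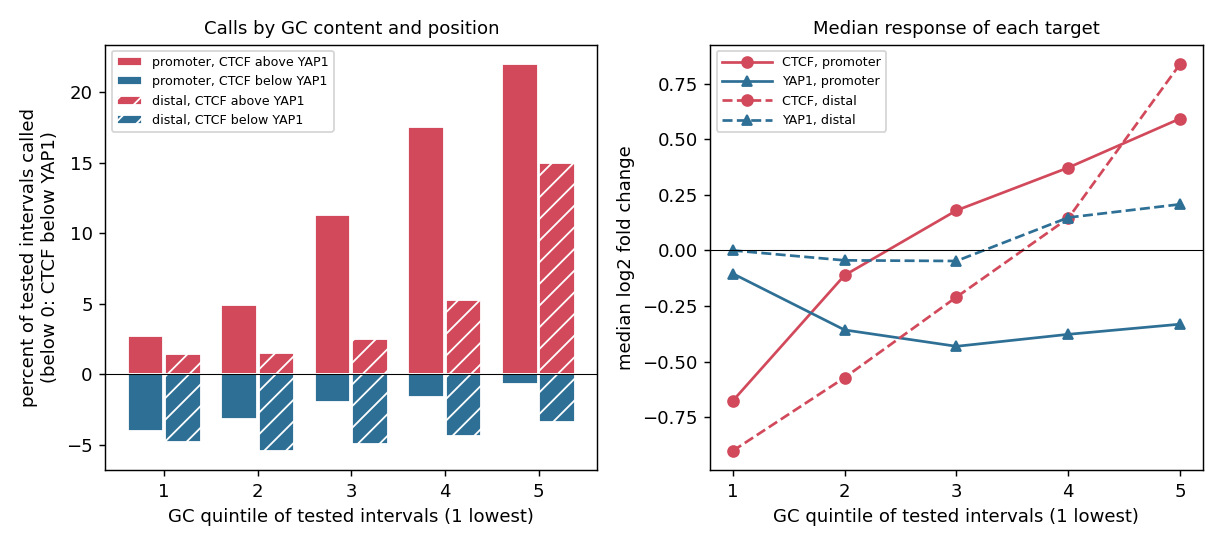
Left, the percent of tested intervals called in each GC quintile, with bars upward for CTCF above YAP1 and downward for CTCF below YAP1, promoters plain and distal intervals hatched. Right, the median log2 fold change of each target in the same classes; the CTCF lines climb with GC content while the YAP1 promoter line stays below 0.

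Intervals with a CTCF core had lower differences than those without. The median fitted difference was -0.17 at 7867 intervals with the core and 0.51 at 33129 without, a gap of -0.67, and with GC-corrected offsets the gap was -0.31. Requiring a mean of at least 10 counts in each target gave -0.41. Among distal intervals alone, the gap between core and no core inside the libraries changed by -0.06 ± 0.08 (SD, n = 2) for CTCF and by 0.16 ± 0.30 (SD, n = 2) for YAP1. That difference of -0.22 had an exact permutation p of 0.667, where 0.333 is the smallest possible, and YAP1 medians at distal intervals rest on few counts. The median fitted difference was -0.49 at distal intervals with the core and -0.08 at those without, with 1.21% and 3.57% above. The core was present in 9.84% of intervals above, 25.8% of those below and 19.2% of all tested. TEAD motif shares were 8.51%, 7.30% and 7.62% in these sets, and those of the AP-1 motif TGANTCA were 13.8%, 13.9% and 13.99%. All motifs were searched as exact letters on both strands, and intervals above were wider, with a median of 1125 bp against 559 bp below.

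Among well covered intervals, the profiles of the 2 targets were more highly correlated after sorbitol. Over 7326 intervals with a mean of at least 50 counts, Pearson's r of log2 CPM between CTCF and YAP1 libraries was -0.15 to -0.12 with vehicle and 0.33 to 0.35 with sorbitol. Between vehicle and sorbitol it was 0.53 to 0.54 for CTCF and 0.79 to 0.83 for YAP1. Between the libraries of a group it was 0.96 for CTCF with vehicle and 0.94 for CTCF with sorbitol. For YAP1 it was 0.95 with vehicle and 0.82 with sorbitol. The YAP1 values between treatments were thus about as high as between its sorbitol libraries. These are correlations across intervals of the same table, given as a description. The intervals were chosen on the mean count over both targets, and such a choice can by itself lower the correlation between them. The vehicle libraries, which were deeper, weigh more in that mean. How far the choice accounts for the change with sorbitol was not tested.

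The interval with the smallest p lies in an intergenic stretch of chromosome 11, at 734736 to 736473 (hg38). Its CTCF level was 7.43 and 8.78 CPM with vehicle and 250 and 275 CPM with sorbitol. Its YAP1 level was 18.7 and 19.7 CPM with vehicle and 15.96 and 25.72 CPM with sorbitol. CTCF rose in both libraries while the YAP1 values of vehicle and sorbitol overlapped. In this interval 66.35% of bases equalled the base 53 positions on, so it is partly repeated and its reads may be placed on the wrong copy. The log2 difference was 4.95 ± 0.41 (SE), with an adjusted p of 2.04e-12 in edgeR's quasi-likelihood test. This interval and the others named for a small p were chosen after their values were seen.

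MKNK2 encodes a kinase that acts downstream of stress-activated MAP kinases on the translation factor eIF4E. At its start site, chromosome 19 from 2041593 to 2043095 and overlapping the untranslated region, CTCF was at 17.7 and 13.9 CPM with vehicle and 138 and 147 CPM with sorbitol. YAP1 was at 68.0 and 71.0 CPM with vehicle and 51.9 and 75.3 CPM with sorbitol. Only the CTCF groups were separate, and the log2 difference was 3.30 ± 0.32 (SE; edgeR adjusted p 4.2e-10).

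DDIT3 encodes CHOP, a transcription factor of the integrated stress response. Over its untranslated region, also within 1 kb of the MBD6 start, chromosome 12 from 57519400 to 57521099, CTCF went from 22.3 and 27.4 CPM to 255 and 285 CPM. YAP1 went from 193 and 174 CPM to 384 and 353 CPM. Both targets rose there, CTCF by 3.46 and YAP1 by 1.01 on the log2 scale, and the difference was 2.45 ± 0.25 (SE; edgeR adjusted p 2.1e-09). DDIT4, an inhibitor of mTORC1 induced by stress, showed a CTCF rise of 2.18 and a YAP1 change of 0.02, with a difference of 2.16 (edgeR adjusted p 1.6e-08).

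CCDC9 showed opposite movements, and the intervals named for such movements were chosen after their values were seen. At its start site, chromosome 19 from 47256241 to 47257901, CTCF went from 50.6 and 50.5 CPM to 169 and 167 CPM. YAP1 went from 257 and 244 CPM to 152 and 103 CPM. The groups did not overlap in either target, and the difference was 2.68 ± 0.26 (SE; edgeR adjusted p 4.2e-10). Among the 179 intervals of this kind was the start of GATA2, a haematopoietic and endothelial transcription factor gene, with CTCF at 1.27, YAP1 at -1.27 and a difference of 2.54 (edgeR adjusted p 9.59e-07). An intron of PKD1, the polycystin-1 gene, had CTCF at 1.44, YAP1 at -0.81 and a difference of 2.25 (edgeR adjusted p 2.87e-08). All of these calls held under the 7 scalings.

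**Figure D3:**
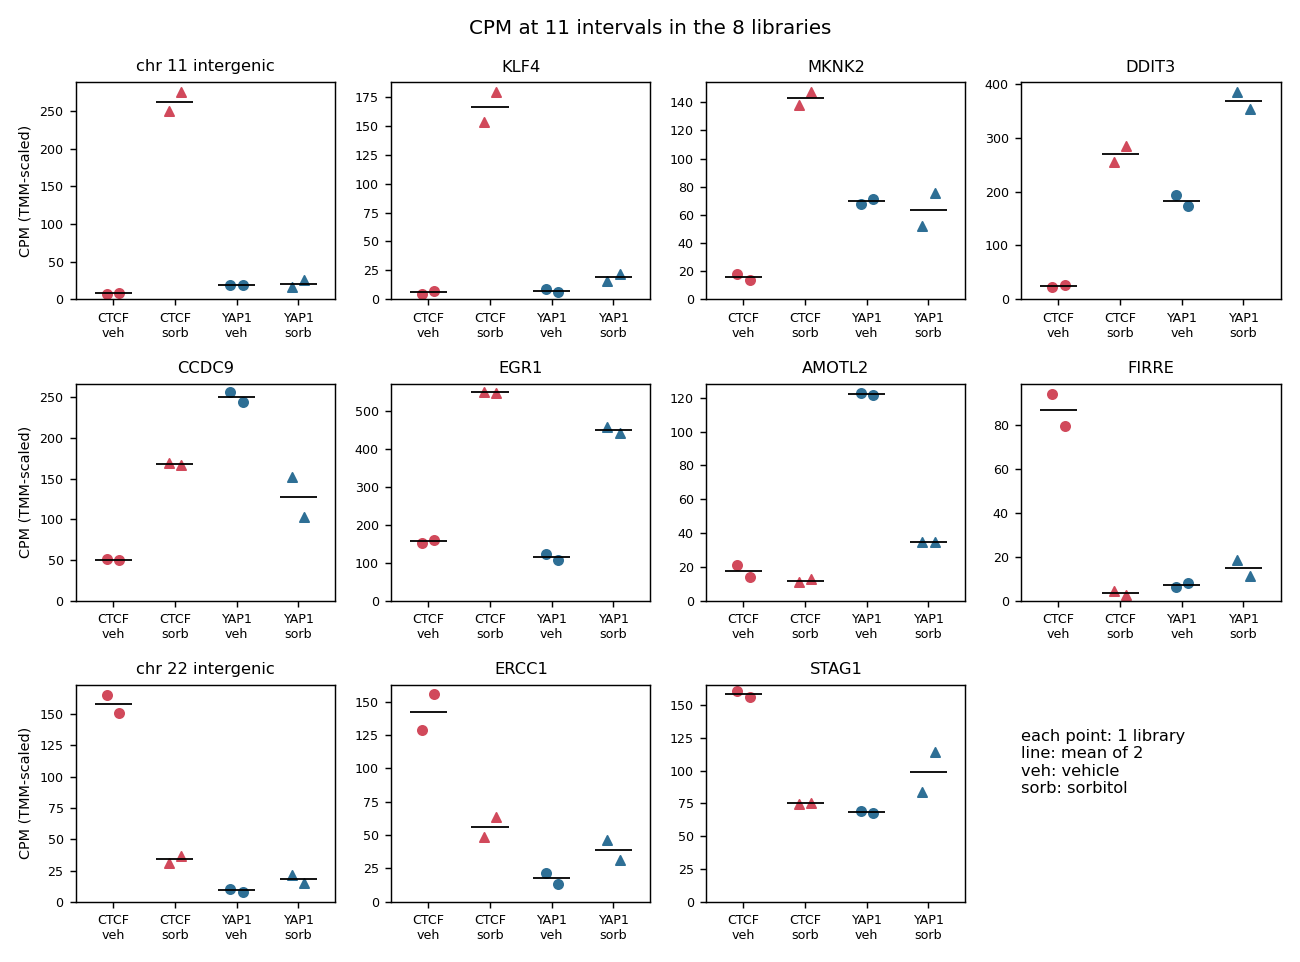
TMM-scaled CPM (y axis, from 0) at 11 intervals in the 8 libraries; circles are vehicle, triangles sorbitol, red CTCF, blue YAP1, and the line is the mean of 2 libraries. At the chromosome 11 interval, KLF4 and MKNK2 the CTCF sorbitol points stand far above vehicle, at EGR1 both targets rise, and at FIRRE, ERCC1 and STAG1 CTCF falls.

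By the naming rule, the largest positive differences at protein-coding promoters were at CD247, AUH, MBNL3, PDE11A, NSMCE4A and CDKN2AIPNL. At all 6, both YAP1 sorbitol libraries held 0 counts, so the fitted difference is not a usable size. Against a floor of 3 counts over the group, YAP1 was at least 10.2-fold lower at CD247, which encodes the zeta chain of the T-cell receptor complex. It was at least 4.59-fold lower at AUH, 4.99-fold at MBNL3, 5.95-fold at PDE11A, 9.59-fold at NSMCE4A and 8.39-fold at CDKN2AIPNL. CTCF fell at NSMCE4A, by 1.23 on the log2 scale, and passed its own test at none of the other 5. The call at CD247 was lost without the second CTCF sorbitol library (adjusted p 0.213), where CTCF stood at 13.2 CPM against 1.47 CPM in the first. PDE11A was called in 6 of the 7 scalings and the others in all 7. Without the first YAP1 sorbitol library the calls at MBNL3, PDE11A, NSMCE4A and CDKN2AIPNL were lost, with adjusted p no higher than 0.102 in any setting.

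Among the largest negative differences at promoters were those at PCMTD2, HES3, LTBP2, CAPZA2 and KAT2A. At KAT2A, a histone acetyltransferase gene, the interval lies on chromosome 17 from 42116761 to 42117359, over its untranslated region, and holds a CTCF core. CTCF went from 29.0 and 35.1 CPM to 5.14 and 8.34 CPM there, while YAP1 was at 6.85 and 5.46 CPM and then at 6.65 and 23.9 CPM. Its difference was -3.41 ± 0.75 (SE; edgeR adjusted p 0.0015), lost without the second YAP1 sorbitol library (adjusted p 0.118). HES3, a Notch-related repressor gene, had a difference of -3.68, with CTCF at -1.91 and YAP1 at 1.77 (edgeR adjusted p 0.000151). At PCMTD2 the difference of -3.88 came with a YAP1 rise of 3.16, and CTCF did not pass its own test. That interval is a tandem repeat, with 99.3% of bases equal to the base 54 positions on. CAPZA2 had -3.42 and LTBP2 -3.66, and these 5 were called under all 7 scalings. The call at PCMTD2 was lost without the first CTCF vehicle library (adjusted p 0.0654), that at LTBP2 without the first CTCF sorbitol library (adjusted p 0.0618), and that at CAPZA2 without the first YAP1 sorbitol library and with GC-corrected offsets.

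Distal intervals above were often tandem repeats. An interval was counted as one where at least 70% of its bases equalled the base a fixed 10 to 100 positions on, a measure chosen after the sequences were seen. Of 194 distal intervals above under all 7 scalings, 48 were repeats (24.7%), against 3.79% of the 21817 distal intervals and 8 of 710 (1.13%) of those below. At the 827 distal repeats the median response was 2.04 for CTCF and 1.27 for YAP1, so both medians lay above 0 there. Reads from repeats can be placed on the wrong copy, and how the authors treated reads with several placements is not given in the sources used here.

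CASZ1 and NXN are the named examples of such repeats. At the CASZ1 intron interval, chromosome 1 from 10744350 to 10744776, CTCF was listed with 1 and 0 counts in the vehicle libraries, against 62 and 23 in the sorbitol libraries. YAP1 was at 21.5 and 13.6 CPM with vehicle and at 29.3 and 3.67 CPM with sorbitol, which overlap. The fitted difference was 7.17 (edgeR adjusted p 1.66e-05), but it rests on 1 vehicle count of CTCF and was lost with all 16 libraries in one fit (adjusted p 0.133). In an NXN intron, chromosome 17 from 841288 to 841695, CTCF went from 1.44 and 3.66 CPM to 82.2 and 48.7 CPM. YAP1 was at 7.31 and 13.1 CPM and then 5.32 and 3.67 CPM, and the difference was 5.86 ± 0.77 (SE; edgeR adjusted p 7.31e-07).

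The other distal intervals named for a positive difference held 0 counts in both YAP1 sorbitol libraries. YAP1 was at least 5.44-fold lower in an LRP3 intron, 5.18-fold in a USP53 intron, 4.92-fold in a DCST1 intron and 4.43-fold at an intergenic interval of chromosome 16. Of these 4, the LRP3 interval alone was called under all 7 scalings.

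FIRRE, an X-linked long noncoding RNA gene whose repeats are known to bind CTCF, held the largest negative distal difference by the naming rule, which asks for a mean of at least 10 counts in each target. The interval lies in an intron, chromosome X from 131762783 to 131764021. CTCF was at 94.2 and 79.4 CPM with vehicle and at 4.40 and 2.78 CPM with sorbitol. YAP1 was at 6.39 and 8.19 CPM with vehicle and at 18.6 and 11.02 CPM with sorbitol. CTCF fell in both libraries while YAP1 did not pass its own test (edgeR adjusted p 0.204). The difference was -5.66 ± 0.69 (SE; edgeR adjusted p 1.19e-07). This call held in every setting in which the interval was tested.

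Along FIRRE, 13 of 16 intervals were tested, and CTCF fell at all 13, with a median log2 fold change of -2.92. The difference was negative at all 13 and passed the test at 6, of which 5 were called under all 7 scalings. YAP1 passed its own test at 1, the gene's start, where it fell by 1.38 and CTCF fell by 1.80, with a difference of -0.42 (edgeR adjusted p 0.606). At the interval with the core shown above, CTCF went from 76.7 and 81.5 CPM to 2.94 and 7.65 CPM. YAP1 there was at 5.48 and 5.46 CPM and then 6.65 and 3.67 CPM, and the difference was -3.85 (edgeR adjusted p 0.00366), lost without the first YAP1 sorbitol library (adjusted p 0.151). YAP1 counts were low over most of the gene. The fitted differences of -8.06 and -7.37 at a pair of intervals that miss the naming rule rest on 0 to 2 YAP1 counts per vehicle library and are no usable size. The gene was looked at after its values were seen.

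**Figure D4:**
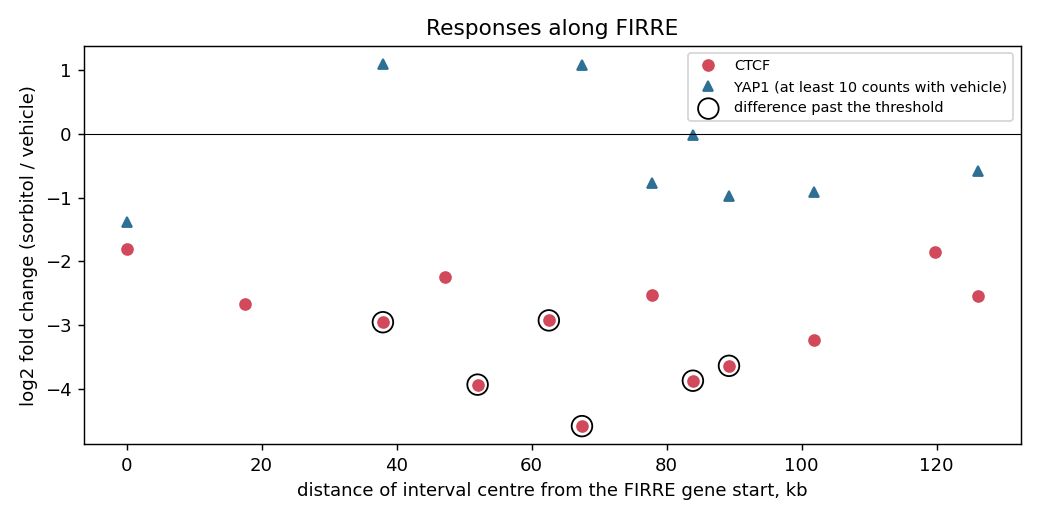
Log2 fold changes of sorbitol over vehicle at the 13 tested intervals of FIRRE against the distance from the gene start in kb; red circles are CTCF and blue triangles YAP1 where its 2 vehicle libraries held at least 10 counts. CTCF lies below 0 at all 13 intervals, and rings mark the 6 differences past the threshold.

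Negative calls had fewer YAP1 counts than positive ones. YAP1 averaged under 10 counts at 975 of the 1384 intervals below, against 196 of the 3677 above. Without the first or the second CTCF vehicle library, 644 and 685 intervals lay below, and 2732 and 2797 above. Without the first or the second YAP1 sorbitol library, 1276 and 1139 lay below, and 3044 and 2398 above.

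Better covered intervals below included ERCC1, RBM4B and STAG1. ERCC1 encodes a subunit of a DNA repair nuclease. At its start site, chromosome 19 from 45478395 to 45479361, CTCF went from 129 and 156 CPM to 48.4 and 63.3 CPM. YAP1 went from 21.5 and 13.6 CPM to 46.5 and 31.2 CPM. Neither pair of groups overlapped, and the difference was -2.50 ± 0.39 (SE; edgeR adjusted p 1.1e-05). At RBM4B, an RNA-binding protein gene, CTCF was at -0.69, YAP1 at 1.18 and the difference at -1.87 (edgeR adjusted p 0.000125). Near LIF, a cytokine gene, an intergenic interval had a difference of -3.22, with CTCF at -2.22 and YAP1 at 1.00 (edgeR adjusted p 9.19e-06).

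Gene lists were read against promoters, of which 15.8% lay above, 1.65% below and 4.31% above under all 7 scalings. They describe intervals within 1 kb of the listed genes' start sites. For cytoplasmic ribosomal protein genes, 34 of 91 intervals lay above (37.4%), at 30 genes, and 0 below, with 15 above under all 7 scalings. Their median difference was 1.10, with medians of 0.70 for CTCF and -0.33 for YAP1, against 0.79 over all promoters. RPL3 had a difference of 2.36 (edgeR adjusted p 4.47e-06), with CTCF at 1.44 and YAP1 at -0.92. Some of these genes host small nucleolar RNA genes, such as SNORD43 within 1 kb of the RPL3 interval.

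Immediate early genes, which are transcribed within minutes of a stimulus, lay above at 21 of 59 intervals (35.6%), at 16 genes, and below at 0, with 9 above under all 7 scalings. Their median difference was 0.99. CTCF rose at 36 of the 59 and YAP1 at 12. KLF4 encodes a zinc-finger transcription factor. At its start, chromosome 9 from 107487445 to 107489133, CTCF went from 5.03 and 7.68 CPM to 153 and 179 CPM. YAP1 went from 8.67 and 6.01 CPM to 15.96 and 22.05 CPM, and the difference was 3.43 ± 0.53 (SE; edgeR adjusted p 1.02e-05). NR4A1, an orphan nuclear receptor gene, had a difference of 2.74, and JUN, which encodes an AP-1 subunit, had 2.33 (edgeR adjusted p 6.97e-05 and 0.00186). The call at JUN was lost with GC-corrected offsets. ATF3, a stress-induced transcription factor gene, had 1.58, with CTCF at 2.28 and YAP1 at 0.70 (edgeR adjusted p 8.99e-06).

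EGR1 and GADD45B rose in both targets and were named after their values were seen. At EGR1, a zinc-finger transcription factor gene, CTCF went from 151 and 161 CPM to 551 and 548 CPM. YAP1 went from 122 and 106 CPM to 457 and 443 CPM. Both rose, and the difference was -0.16 ± 0.23 (SE; edgeR adjusted p 0.692), which does not show that they were equal. It was below and past the threshold with DESeq2 size factors (-0.75, adjusted p 0.0333), with DESeq2 (-0.75, adjusted p 0.011), at a mean of at least 10 counts in each target (-0.97, adjusted p 0.0126) and with GC-corrected offsets (-0.998, adjusted p 0.00443). With the weakest 25% it was 0.33. GADD45B, a growth arrest gene, had a CTCF rise of 5.07, a YAP1 rise of 4.41 and a difference of 0.66 (edgeR adjusted p 0.163), which passed with the weakest 25% (1.14, adjusted p 0.00567).

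**Figure D5:**
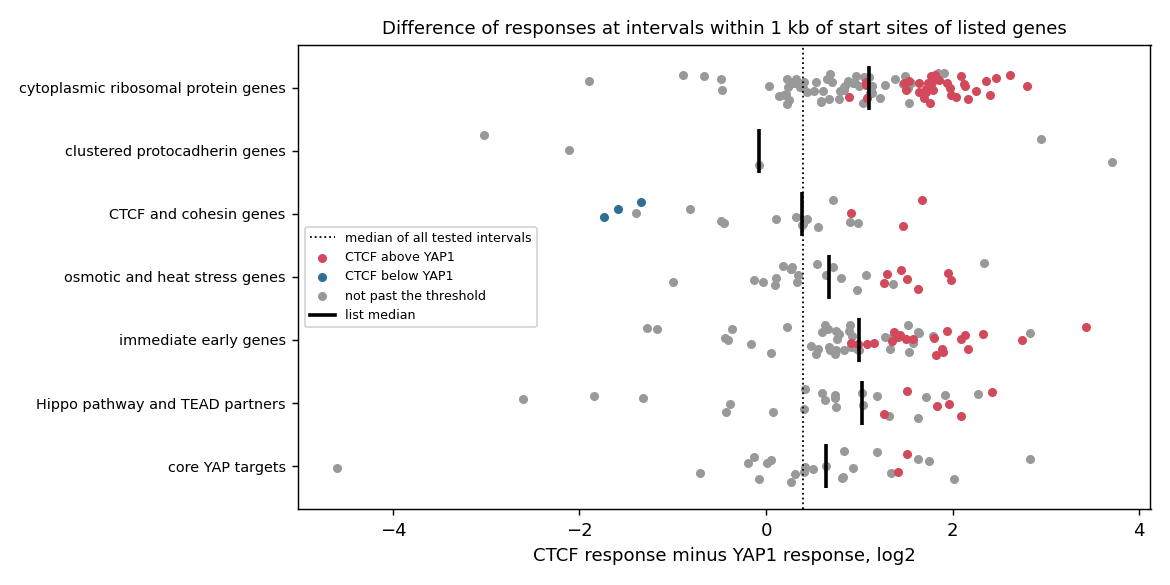
Each point is 1 tested interval within 1 kb of a listed gene's start site, placed by its log2 CTCF response minus YAP1 response; red and blue points passed the threshold, black bars are list medians and the dotted line is the median of all tested intervals. Blue points appear in the list of CTCF and cohesin genes and in no other.

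The core targets of YAP lay above at 2 of 25 intervals (8%) and below at 0. These were PTPN14, a phosphatase that restrains YAP, at 1.51 and GADD45A at 1.42 (edgeR adjusted p 0.0258 and 0.00258), and neither was called under all 7 scalings. AMOTL2, ANKRD1, CCN1 and CCN2 did not pass and were named after their values were seen. At AMOTL2, an angiomotin family gene, YAP1 went from 123 and 122 CPM to 34.6 and 34.9 CPM. CTCF was at 21.3 and 14.3 CPM and then 11.01 and 12.5 CPM, and the difference was 1.19 ± 0.44 (SE; edgeR adjusted p 0.0677). At ANKRD1, a cardiac ankyrin repeat gene, YAP1 fell by 3.43 and CTCF held at most 2.16 CPM in any library, with a difference of 2.01 ± 1.64 (SE; edgeR adjusted p 0.448). CCN1 and CCN2, which encode matricellular proteins, had differences of -0.07 and -0.71 (edgeR adjusted p 0.91 and 0.181). AMOTL2 passed with table totals (1.42, adjusted p 0.0481), with the weakest 25% and without the first CTCF vehicle library (1.57, adjusted p 0.0382). CCN2 passed, with the CTCF response below, with DESeq2 size factors (-1.30, adjusted p 0.0147), centring, DESeq2, GC-corrected offsets with or without the replicate block, and both stricter count filters, at -1.51 to -1.11. At ANKRD1 the sign turned without the second CTCF sorbitol library. Whether YAP1's fall at AMOTL2 differed from CTCF's response thus depended on the scaling, and at ANKRD1 it could not be resolved at these counts.

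Genes of the Hippo pathway and TEAD partners lay above at 6 of 27 intervals (22.2%) and below at 0. TEAD4, which encodes a DNA-binding partner of YAP, had a difference of 2.09 (edgeR adjusted p 0.00336), and an interval shared by TEAD2 and DKKL1 had 1.83 (edgeR adjusted p 1.3e-05). Only the latter was called under all 7 scalings. Osmotic and heat stress genes lay above at 7 of 26 intervals (26.9%) and below at 0, with 1 above under all 7 scalings. Their median difference was 0.68, against 0.79 over all promoters. DNAJB1, a heat shock co-chaperone gene, had a difference of 1.62 there (edgeR adjusted p 0.000165), with CTCF at 2.09 and YAP1 at 0.47, lost with GC-corrected offsets.

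CTCF and cohesin genes divided, with 3 of 19 intervals above and 3 below. Below were PDS5B at -1.74, STAG1 at -1.59 and PDS5A at -1.35, which encode cohesin regulators and a cohesin subunit (edgeR adjusted p 0.0104, 0.000102 and 0.0197). Above were MAU2 at 1.67, SMC1A at 1.47 and ESCO1 at 0.91, which encode a loader, a core subunit and an acetyltransferase of cohesin (edgeR adjusted p 0.0238, 0.0148 and 0.0454). Of these 6, STAG1 alone was called under all 7 scalings, and each of the other 5 was also lost without at least 1 library. At STAG1 CTCF went from 161 and 156 CPM to 74.9 and 75.1 CPM, and YAP1 from 69.4 and 67.7 CPM to 83.8 and 114 CPM. Clustered protocadherin genes, at which CTCF sets promoter choice in neurons, had 0 of 5 tested intervals in either direction.

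RAD21, a cohesin subunit, and H3K27ac, a mark of active promoters and enhancers, were measured in libraries that the interaction test did not use. RAD21 rose at 2.76% and fell at 1.17% of the 14918 intervals tested for it. At 2995 intervals above it rose at 219 and fell at 1, with a median of 0.50. At 594 below it rose at 0 and fell at 45, with a median of -1.09. Among distal intervals the RAD21 medians were 0.66 above, -1.25 below and -0.56 at the rest. RAD21 medians thus had the sign of the CTCF response in both sets, while most single intervals did not pass the RAD21 test.

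H3K27ac rose at 8.56% and fell at 14.4% of the 56338 intervals tested for it. It fell at 1830 of 3550 intervals above (51.5%) and at 68 of 1099 below (6.19%). Within promoters it fell at 56.2% of those above and 26.4% of those called in neither direction, with medians of -0.38 and -0.11. Intervals in the highest quintile of vehicle H3K27ac lay above at 25.7% and below at 0.634%, against 1.87% and 4.72% in the lowest. These readouts were scaled by TMM within each target, so their directions, unlike the order of the sets, depend on that scaling.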

How the data were processed

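The deposited table gives whole-number counts per interval, not scaled by the authors, for 16 CUT&Tag libraries. Per the submitters' processing notes, Trim Galore, FastQC, BWA 0.7.17, SAMtools, Picard, bedtools 2.31.1 and MACS2 2.2.6 were used with hg38; their roles, and whether peaks were called on pooled samples, are not given in the sources used here. Mitochondrial, Y and contig intervals and 12 intervals inside the YAP1 gene were left out. The 8 CTCF and YAP1 libraries were fitted with edgeR 4.0.16 (robust quasi-likelihood, two-sided, TMM, filterByExpr at 10 counts) in R 4.3.3, with DESeq2 1.42.0 as an alternative, and p-values adjusted by Benjamini-Hochberg over the tested intervals. Standard errors were derived from the F statistic. Annotation was GENCODE 44, by bedtools 2.31.1. CPM values are TMM-scaled.

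The test was tested on simulated counts. With known scaling it made few false calls but missed many changed intervals, more among those lowered than among those raised. With TMM a shared response appeared as CTCF above YAP1. The fixed TMM fit was kept and the 7 scalings were set beside it; the centred one was chosen after seeing the data.

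The rule named the 6 largest differences per direction at protein-coding promoters and at distal intervals, among calls averaging 10 counts or more per library in both targets whose response ranges did not overlap. Some named intervals are not reported here. The comparison, members and lists were chosen with earlier results of these data known. Same-numbered libraries did not deviate together (r from -0.02 to 0.03).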

Additional observations from a re-analysis of the deposited data

Results flagged for a closer look

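The responses of CTCF and YAP1 to the same treatment differed by the test of the difference itself, the interaction in edgeR's quasi-likelihood test. At 3677 intervals the CTCF response lay above the YAP1 response, and at 1384 it lay below. The balance of these counts depends on the scaling, and 1021 and 889 of them were called under all 7 scalings.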

How the results depend on the processing

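The number of intervals above, 3677, was 1021 with DESeq2 size factors, 938 with DESeq2, 8064 with scaling to the weakest 25%, 1576 with centring, 2027 with no count filter, 1299 at a mean of at least 50 counts, 492 at a mean of at least 10 counts in each target and 1599 with GC-corrected offsets. The number below, 1384, was 2552 with DESeq2 size factors, 3078 with DESeq2, 908 with the weakest 25% and 771 at a mean of at least 50 counts. Leaving out 1 library gave 2398 to 3345 above and 644 to 1276 below.

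The median difference, 0.39, was 0.29 with TMM within each target, 0.59 with the table total, 0.88 with the weakest 25%, 0.14 with no count filter, 0.20 at a mean of at least 50 counts, 0.19 with GC-corrected offsets and 0.23 with all 16 libraries in one fit. It turned to -0.19 with DESeq2 size factors, -0.25 with DESeq2, -0.021 at a mean of at least 10 counts in each target and -0.00082 with centring. Leaving out 1 library gave 0.30 to 0.60.

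The promoter minus distal gap, 0.99, was 0.75 with no count filter, 0.55 at a mean of at least 10 counts in each target and 0.26 with GC-corrected offsets, and 0.60 to 1.10 without 1 library. The CTCF core gap, -0.67, was -0.57 at a mean of at least 50 counts, -0.41 at a mean of at least 10 in each target, -0.31 with GC-corrected offsets and -0.96 with the 14-base consensus at 1 mismatch, and -0.69 to -0.48 without 1 library. Both kept their direction in every setting. Apart from the scaling and the smaller number of intervals tested, the cause of these shifts was not tested.

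With the replicate block, 3299 lay above and 1137 below. With the replicate block and GC-corrected offsets, 1358 lay above and 979 below, with a median of 0.18, a promoter gap of 0.27 and a core gap of -0.32. The labels do not say whether same-numbered libraries were paired. The lack of a shared deviation between them cannot decide it, since counting noise can hide one.

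Of 106 named intervals, 51 kept their side of the threshold and direction in every setting. Signs turned only where the difference had not been called with TMM. CCN1 was 0.17 with the table total, 0.41 with the weakest 25%, and -0.48 to 0.28 without 1 library. EGR1 was 0.077 with the table total and 0.33 with the weakest 25%. GADD45B was -0.14 at a mean of at least 10 counts in each target, and ANKRD1 was -1.53 to 2.99 without 1 library. The FIRRE start was 0.070 with the weakest 25%, 0.0078 with GC-corrected offsets and -1.22 to 0.47 without 1 library, and another FIRRE interval was -6.25 to 0.93 without 1 library. YAP1 with sorbitol, at 659976 to 803927 counts, had the least depth.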
